A study of Mus musculus with 16 samples.

Results

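A set of 9 genes of the growth factor systems that drive liver cell division was followed in this series: the ligand genes Hgf, Hbegf and Fgf1, and the receptor genes Met, Egfr, Fgfr1, Fgfr2, Fgfr3 and Fgfr4. They were chosen by symbol, as 9 hepatocyte mitogens and receptors named in liver regeneration. All 9 were listed in both expression tables, out of 14191 genes listed in either. The samples were 16 livers, 4 per group. The groups were Mfap2-/- mice after 8 weeks of intraperitoneal carbon tetrachloride (CCl4), Mfap2+/+ mice after the same 8 weeks, Mfap2-/- mice given CCl4 for 8 weeks and then none for 4 weeks (the reversal stage), and Mfap2+/+ mice after the same reversal. CCl4 is a hepatotoxin that causes fibrosis when given repeatedly, and all 16 mice received it. Mice without CCl4 were not analysed here. Mfap2 encodes microfibril-associated glycoprotein 1, a protein of fibrillin microfibrils, and the labels name no cell type or promoter for its deletion. The labels give no age, sex or strain.

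Hepatocyte growth factor, HGF, is made in liver mainly by stellate cells and other mesenchymal cells and acts on hepatocytes through the tyrosine kinase receptor MET. The epidermal growth factor receptor, EGFR, is abundant on hepatocytes and binds several ligands, among them heparin-binding EGF-like growth factor, HB-EGF. The fibroblast growth factors act through 4 receptor tyrosine kinases, FGFR1 to FGFR4. FGFR4 with its co-receptor beta-klotho is the hepatocyte receptor for the gut hormone FGF15 of mice, which represses bile acid synthesis, whereas FGFR1 and FGFR2 are better known on mesenchymal and biliary cells. FGF1 binds all 4 receptors.

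Values are FPKM, fragments scaled to transcript length and to the total of the library, so that levels of different genes can be set side by side. Differences between genotypes are given as Mfap2-/- minus Mfap2+/+ in log2(FPKM + 1), with a standard error (SE) and an adjusted p from limma over all genes tested, called below 0.05. Each stage is its own table, so stage and table cannot be told apart, and levels were tested within a stage. The labels name a further library kit for the reversal stage without saying which libraries used it. Kit may thus differ between stages and also among the reversal libraries, and its part was not tested. Mfap2 was listed at 0 in all 8 Mfap2-/- libraries. Its FPKM in Mfap2+/+ mice 1 to 4 was 0.902, 0.972, 1.40 and 3.07 at 8 weeks and 0.17, 0.21, 0.44 and 0.47 after reversal, and the exact 2-sided permutation p of 0.0286 at each stage is the smallest that 70 assignments can give. Of 10 hepatocyte markers 9 were listed at each stage, and albumin (Alb) averaged 24089 ± 5066 FPKM in Mfap2-/- livers and 36951 ± 8366 FPKM in Mfap2+/+ livers at 8 weeks (SD, n = 4 each). The 8-week libraries of Mfap2+/+ mice 1 and 2 stood apart, at -45.7 and -49.4, on a principal component that held 53.5% of the variance. Mfap2+/+ mouse 3 lay at -10.4, and mouse 4, at 29.8, lay within the Mfap2-/- range of -1.19 to 38.0. The component thus partly followed genotype. Fits without mice 1 and 2 keep only Mfap2+/+ mice 3 and 4 and also remove genotype contrast, with a median gene at 0.04. After reversal the libraries of Mfap2-/- mice 2 and 3 and Mfap2+/+ mouse 1 did so on a component with 45.9% of the variance, and they had the largest mitochondrial shares of FPKM, 32.4%, 37.5% and 38.1%. On the log2 scale the median gene was 0.23 higher in Mfap2-/- livers at 8 weeks and 0.10 higher in Mfap2-/- livers after reversal, and the larger differences are also given relative to it.

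No member passed the test at either stage. This holds for 0 of the 9 tested at 8 weeks and 0 of the 7 tested after reversal, when Hgf and Hbegf lay below the level filter of a mean of 0.5 FPKM. Over all genes limma called 1 of 11928 higher at 8 weeks (0.00838%) and 0 lower (0%), and 0 of 11032 in each direction after reversal (0%). Mfap2 itself, at 0 in every Mfap2-/- library, did not pass at 8 weeks (limma difference -1.30, adjusted p = 0.0561). It lay below the level filter after reversal. The lack of a call is therefore not evidence that a gene was unchanged. At an unadjusted p below 0.05 the members were Hgf and Fgfr2 at 8 weeks, both higher in Mfap2-/- livers, where 12.8% of all genes tested were higher and 1.62% lower. After reversal they were Fgfr1, which was higher, and Fgf1, which was lower, where 6.95% of all genes were higher and 1.5% lower. For the 7 members tested in both tables no interaction between genotype and stage passed the test (limma adjusted p = 0.9999 for each), and over 10647 genes 0 were called and 294 had an unadjusted p below 0.05 (2.76%).

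**Figure D1:**
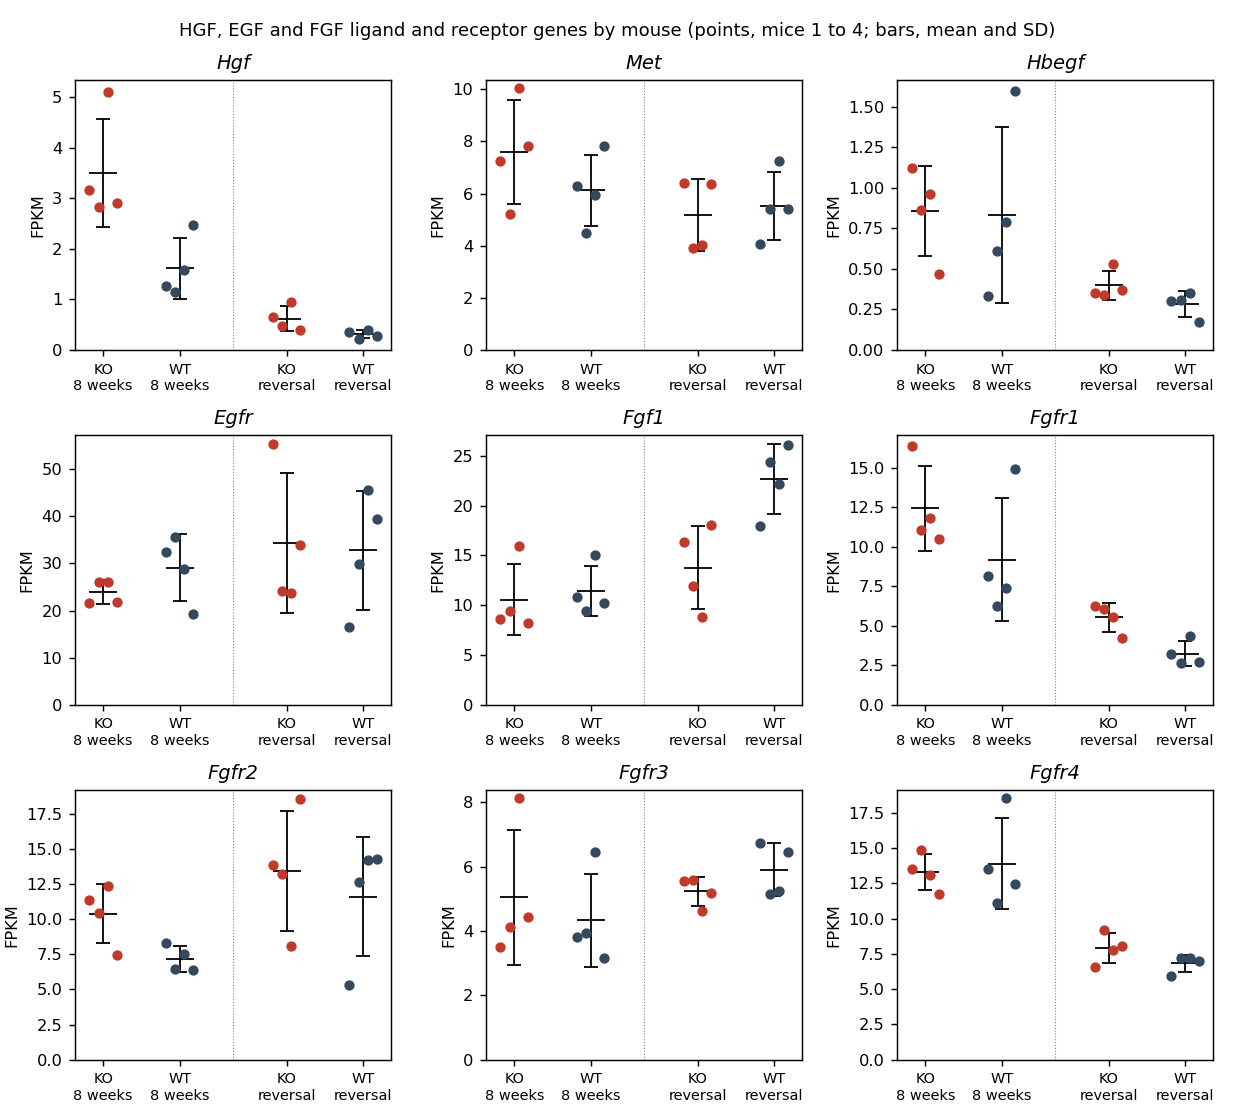
FPKM of each member in each of the 4 mice of a group (points, mice 1 to 4 from left to right), with the group mean and SD (bars); KO is Mfap2-/- and WT is Mfap2+/+, and the dotted line separates the tables of the stages. For Hgf the 4 KO points lie above the 4 WT points at each stage, whereas for the other genes the points of the genotypes overlap.

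Hgf, the ligand of MET, was higher in every Mfap2-/- liver than in any Mfap2+/+ liver, at both stages. The gene (ENSMUSG00000028864) lies on chromosome 5 at 16553495 to 16620152 of mm10, plus strand, and shares 484 exon bases with Gm43489 on the same strand, so reads there are uncertain. At 8 weeks Hgf had 3.16, 2.84, 5.10 and 2.91 FPKM in Mfap2-/- mice 1 to 4, against 1.26, 1.14, 1.58 and 2.46 FPKM in Mfap2+/+ mice 1 to 4. The Mfap2-/- values were close together except for the higher mouse 3, and the lowest of them exceeded the highest Mfap2+/+ value, that of mouse 4. The ratio of means was 2.17. The limma difference was 0.78 ± 0.23 (SE), or 0.56 relative to the median gene, and did not pass the test (adjusted p = 0.159, higher in 4 of 4 Mfap2-/- mice). Of all genes tested, 6.29% separated in this direction at 8 weeks and 0.612% in the other, in which 0 members did. Without Mfap2+/+ mouse 4 the difference was 0.93 and passed (limma adjusted p = 0.0112), in a fit that called 1465 of 11928 genes, 1238 of them higher. Without the Mfap2+/+ libraries that stood apart, of mice 1 and 2, it was 0.56 ± 0.27 (SE; limma adjusted p = 0.920).

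After reversal Hgf had 0.66, 0.48, 0.94 and 0.40 FPKM in Mfap2-/- mice, against 0.35, 0.21, 0.39 and 0.28 FPKM in Mfap2+/+ mice. The groups did not overlap, but Mfap2-/- mouse 4 and Mfap2+/+ mouse 3 were nearly level. Among the genes listed but below the filter, as Hgf was here, 3.6% separated in this direction. With no filter the difference was 0.30 ± 0.12 (SE; limma adjusted p = 0.569). After median-ratio scaling of the libraries the groups overlapped, with a lowest Mfap2-/- value of 0.378 and a highest Mfap2+/+ value of 0.383, while at 8 weeks they stayed apart under each of the scalings tried. Hgf was among 85 of 12446 genes listed in both tables (0.683%) that were higher in every Mfap2-/- liver at both stages.

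Marker sums of several non-parenchymal cell types reached higher values in Mfap2-/- livers, as Hgf did, with or without overlap of the genotypes. For stellate cells and myofibroblasts the summed level over 12 genes, all listed and none at 0 throughout, was 196 to 383 FPKM in Mfap2-/- livers and 121 to 142 FPKM in Mfap2+/+ livers at 8 weeks, and 55.0 to 110 FPKM against 29.2 to 52.6 FPKM after reversal. The ratio of that sum to Hgf overlapped between the genotypes, at 67.4 to 84.5 in Mfap2-/- livers and 49.2 to 124 in Mfap2+/+ livers at 8 weeks, and at 95.8 to 186 and 118 to 150 after reversal. The 8-week ratio was lowest in Mfap2+/+ mouse 4, with the highest Hgf of its group, and highest in Mfap2+/+ mouse 2, with the lowest. In Mfap2-/- mice 1 to 4 the 8-week ratio was 84.5, 78.0, 75.1 and 67.4, a narrower range than in the Mfap2+/+ group. Sinusoidal endothelial markers, 11 listed and none at 0 throughout, summed to 115 to 178 FPKM in Mfap2-/- livers and 68.0 to 110 FPKM in Mfap2+/+ livers at 8 weeks, without overlap, and to 69.9 to 261 FPKM and 50.6 to 237 FPKM after reversal, with overlap. Macrophage markers, all 11 listed and none at 0 throughout, summed to 868 to 1897 FPKM in Mfap2-/- livers and 667 to 1114 FPKM in Mfap2+/+ livers at 8 weeks, and to 793 to 1201 FPKM and 439 to 661 FPKM after reversal. The macrophage sums overlapped at 8 weeks and not after reversal. Lyz2 alone averaged 482 ± 154 FPKM in Mfap2-/- livers and 208 ± 43.6 FPKM in Mfap2+/+ livers after reversal (SD), a large part of these sums. Of the 11 macrophage markers 4 separated in this direction then and 0 in the other, beside 3.62% and 0.988% of all genes tested. Stab1 was likewise a large part of the endothelial sums after reversal, at 68.3 ± 57.9 FPKM and 57.8 ± 53.2 FPKM. Among the tested genes of these lists, Hand2 and Marco at 8 weeks, and Lyve1 and Clec4f after reversal, had a difference below 0, and the others above 0. The part of these markers in the Hgf difference was not tested. In bulk liver, fewer cells of a type and less RNA per cell cannot be told apart.

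Met, the HGF receptor, did not separate by genotype. It lies on chromosome 6 at 17463800 to 17573980, plus strand (ENSMUSG00000009376). At 8 weeks it had 7.25, 5.20, 10.1 and 7.83 FPKM in Mfap2-/- mice, against 6.28, 4.47, 5.93 and 7.82 FPKM in Mfap2+/+ mice. Mouse 2 was the lowest of each genotype, Mfap2-/- mouse 3 was the highest, and the others were interleaved. The difference was 0.26 ± 0.23 (SE; limma adjusted p = 0.563), or 0.03 relative to the median gene. After reversal Met had 6.40, 3.91, 4.03 and 6.37 FPKM in Mfap2-/- mice, against 4.08, 5.40, 7.26 and 5.40 FPKM in Mfap2+/+ mice. The lowest 3 of these 8 values, 3.91 and 4.03 in Mfap2-/- mice 2 and 3 and 4.08 in Mfap2+/+ mouse 1, belong to the libraries that stood apart. The difference was -0.09 ± 0.21 (SE; limma adjusted p = 0.944), and 0.08 ± 0.17 without those libraries.

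Set within each library, which cancels any common scale, the receptor to ligand ratio Met/Hgf at 8 weeks was 1.83 to 2.69 in Mfap2-/- livers and 3.17 to 4.99 in Mfap2+/+ livers. The genotypes did not overlap. After reversal the ratio was 4.29 to 15.9 in Mfap2-/- livers and 11.7 to 25.7 in Mfap2+/+ livers, and they overlapped. These ratios were chosen after the values of the members were seen and carry no test.

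The promoters of this ligand and receptor pair, and that of Egfr, are shown because their base composition differs. Each runs from 250 bases before to 50 after a start site, 5′ to 3′, from RefSeq on GRCm38.p6: Hgf at chr5:16553245-16553544, Met at chr6:17463707-17464006 and Egfr at chr11:16751953-16752252, all on the plus strand. For Hgf the more upstream of its start sites in the table was taken. Capitals mark matches, on either strand, to the TATA box TATAAA, the GC box GGGCGG, the CCAAT box CCAAT or the AP-1 motif TGANTCA, and no matches of different motifs overlap in these windows.
Hgf: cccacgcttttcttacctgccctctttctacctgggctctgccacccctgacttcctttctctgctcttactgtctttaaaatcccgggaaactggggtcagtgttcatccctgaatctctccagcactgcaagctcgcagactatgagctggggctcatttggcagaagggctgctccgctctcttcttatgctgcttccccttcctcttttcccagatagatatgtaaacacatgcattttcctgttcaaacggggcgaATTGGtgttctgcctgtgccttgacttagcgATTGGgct
Met: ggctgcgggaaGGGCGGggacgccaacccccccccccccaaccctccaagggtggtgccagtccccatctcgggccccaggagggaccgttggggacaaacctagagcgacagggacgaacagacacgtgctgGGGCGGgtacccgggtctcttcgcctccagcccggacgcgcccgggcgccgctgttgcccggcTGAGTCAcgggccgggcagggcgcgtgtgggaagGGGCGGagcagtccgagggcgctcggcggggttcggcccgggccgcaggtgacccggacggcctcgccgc
Egfr: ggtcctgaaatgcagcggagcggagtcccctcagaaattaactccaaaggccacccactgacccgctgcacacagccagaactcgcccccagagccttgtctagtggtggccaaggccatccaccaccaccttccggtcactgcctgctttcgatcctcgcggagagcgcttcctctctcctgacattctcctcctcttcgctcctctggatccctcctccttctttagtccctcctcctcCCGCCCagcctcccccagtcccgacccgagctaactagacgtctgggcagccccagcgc
The Hgf window is 51.3% G and C with 7 CpG, close to the median of 52.7% and 7 CpG over 32851 promoters of the same length, and holds 2 CCAAT matches and 0 GC boxes. The Met window is 75.7% G and C with 34 CpG and holds 3 GC boxes and 1 AP-1 match, and the Egfr window is 62.3% G and C with 15 CpG and 1 GC box. Of all promoters 13.6% hold TATAAA, 35.7% GGGCGG, 37.4% CCAAT and 7.81% TGANTCA. Over the 8 windows matched for 6 members, GGGCGG was present in 5, CCAAT in 2, TGANTCA in 1 and TATAAA in 0.

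Egfr was the most abundant member in every group. It lies on chromosome 11 at 16752203 to 16918158, plus strand (ENSMUSG00000020122). At 8 weeks Egfr had 21.6, 26.2, 26.1 and 21.8 FPKM in Mfap2-/- mice, against 32.5, 35.7, 28.8 and 19.3 FPKM in Mfap2+/+ mice. Mice 1 to 3 of the Mfap2+/+ group were above every Mfap2-/- mouse and mouse 4 was below all of them. The difference was -0.24 ± 0.22 (SE; limma adjusted p = 0.566), or -0.47 relative to the median gene, and 0.01 ± 0.22 without the Mfap2+/+ libraries that stood apart. After reversal it had 55.4, 24.2, 23.8 and 33.9 FPKM in Mfap2-/- mice, against 16.6, 29.9, 45.6 and 39.4 FPKM in Mfap2+/+ mice. As for Met, the lowest 3 values were those of the libraries that stood apart, and the genotypes overlapped. The difference was 0.07 ± 0.35 (SE; limma adjusted p = 0.977), and 0.20 ± 0.24 without those libraries.

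Hbegf, a ligand of EGFR, was the least abundant member in all 4 groups. It lies on chromosome 18 at 36504927 to 36515805, minus strand (ENSMUSG00000024486). At 8 weeks it had 1.12, 0.864, 0.962 and 0.469 FPKM in Mfap2-/- mice, against 0.334, 0.611, 0.788 and 1.59 FPKM in Mfap2+/+ mice. The lowest and the highest of the 8 were both Mfap2+/+ mice, and the difference of 0.05 ± 0.21 was smaller than its SE (limma adjusted p = 0.900). After reversal it had 0.35, 0.34, 0.53 and 0.37 FPKM in Mfap2-/- mice, against 0.30, 0.31, 0.35 and 0.17 FPKM in Mfap2+/+ mice. The groups overlapped between 0.34 and 0.35 FPKM, and with no filter the difference was 0.12 ± 0.09 (SE; limma adjusted p = 0.732).

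Fgf1, the FGF ligand of the set, was lower in Mfap2-/- livers after reversal by its means, though not past the test. It lies on chromosome 18 at 38838673 to 38929472, minus strand (ENSMUSG00000036585). After reversal Fgf1 had 16.3, 11.9, 8.81 and 18.1 FPKM in Mfap2-/- mice, against 17.9, 24.4, 22.2 and 26.1 FPKM in Mfap2+/+ mice. Mfap2-/- mice 1 to 3 lay below every Mfap2+/+ mouse, and mouse 4 lay just above the lowest of them. Of the 7 members tested at this stage 0 separated in either direction, beside 3.62% of all genes tested with every Mfap2-/- liver higher and 0.988% with every Mfap2-/- liver lower. The means were 13.8 ± 4.20 FPKM in Mfap2-/- livers and 22.6 ± 3.52 FPKM in Mfap2+/+ livers (SD, n = 4 each), a ratio of 0.609. The difference was -0.71 ± 0.22 (SE; limma adjusted p = 0.526; lower in 3 of 4 Mfap2-/- mice than in any Mfap2+/+ mouse), or -0.81 relative to the median gene. It was -0.47 ± 0.14 without the libraries that stood apart, of which Mfap2-/- mouse 3 was the lowest and Mfap2+/+ mouse 1 the lowest of its group. After median-ratio scaling the genotypes no longer overlapped, at 7.85 to 17.1 in Mfap2-/- livers and 19.6 to 27.1 in Mfap2+/+ livers, as 2.2% of all genes tested did in this direction under that scaling.

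At 8 weeks Fgf1 had 8.65, 9.47, 15.9 and 8.23 FPKM in Mfap2-/- mice, against 10.8, 9.43, 15.1 and 10.3 FPKM in Mfap2+/+ mice. Mouse 3 was the highest in each genotype, and the ranges overlapped almost wholly. The difference was -0.13 ± 0.24 (SE; limma adjusted p = 0.771), or -0.35 relative to the median gene. Median-ratio scaling made it -0.42 and quantile normalization -0.35. The interaction with stage was -0.59 ± 0.33 (SE; limma adjusted p = 0.9999), and -0.21 ± 0.34 without the libraries that stood apart.

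Fgfr1, an FGF receptor of mesenchymal cells, had higher means in Mfap2-/- livers at both stages without passing the test. It lies on chromosome 8 at 25513654 to 25575718, plus strand (ENSMUSG00000031565), and shares 164 exon bases with Gm16159 on the opposite strand. After reversal it had 6.27, 6.06, 5.56 and 4.21 FPKM in Mfap2-/- mice, against 3.22, 2.63, 4.34 and 2.71 FPKM in Mfap2+/+ mice. Mfap2-/- mice 1 to 3 were above every Mfap2+/+ mouse, and only Mfap2-/- mouse 4 lay below Mfap2+/+ mouse 3. The difference was 0.63 ± 0.17 (SE; limma adjusted p = 0.499; unadjusted p = 0.00451), or 0.53 relative to the median gene, and 0.57 ± 0.22 without the libraries that stood apart. The stellate marker sums given above for this stage moved the same way, and their ratio to Fgfr1 overlapped, at 9.08 to 19.8 in Mfap2-/- livers and 10.8 to 16.3 in Mfap2+/+ livers. Their part in the difference was not tested.

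At 8 weeks Fgfr1 had 16.4, 11.0, 11.8 and 10.5 FPKM in Mfap2-/- mice, against 8.12, 6.27, 7.40 and 14.9 FPKM in Mfap2+/+ mice. Mfap2+/+ mouse 4 lay above all but one of the Mfap2-/- mice, while the other Mfap2+/+ mice lay below all of them. The difference was 0.45 ± 0.25 (SE; limma adjusted p = 0.427), or 0.22 relative to the median gene and 0.16 after median-ratio scaling. Without Mfap2+/+ mouse 4 it was 0.69 and passed the test (limma adjusted p = 0.0452). That fit called 1465 of 11928 genes, 1238 of them higher in Mfap2-/- livers. Without the libraries that stood apart, of Mfap2+/+ mice 1 and 2, the Fgfr1 difference was 0.20 ± 0.28. The within-library ratio Fgf1/Fgfr1 after reversal was 1.58 to 4.29 in Mfap2-/- livers and 5.11 to 9.63 in Mfap2+/+ livers, without overlap, and at 8 weeks 0.528 to 1.35 and 0.687 to 2.04, with overlap. This ratio too was chosen after the values were seen and carries no test. Fgf1 was lower and Fgfr1 higher in Mfap2-/- livers after reversal by their means, so the ratio combines both differences. Other member ratios computed, Egfr/Hgf, Egfr/Met, Fgfr4/Fgfr1 and Egfr/Hbegf, overlapped between the genotypes at both stages. No share over other gene pairs is given for this ratio or for Met/Hgf.

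Fgfr2, whose isoforms serve epithelial and mesenchymal cells, had 11.4, 10.5, 12.3 and 7.43 FPKM in Mfap2-/- mice at 8 weeks, against 8.31, 6.46, 7.51 and 6.40 FPKM in Mfap2+/+ mice. Mfap2-/- mice 1 to 3 were above every Mfap2+/+ mouse and mouse 4 was within their range. The difference was 0.47 ± 0.21 (SE; limma adjusted p = 0.331), or 0.24 relative to the median gene, 0.18 after median-ratio scaling, and 0.50 ± 0.24 without the libraries that stood apart. After reversal it had 13.9, 13.2, 8.11 and 18.6 FPKM in Mfap2-/- mice, against 5.32, 12.7, 14.2 and 14.3 FPKM in Mfap2+/+ mice. The lowest value of each group came from a library that stood apart, and the difference was 0.23 ± 0.32 (SE; limma adjusted p = 0.893), against 0.22 ± 0.16 without the libraries that stood apart. Fgfr2 (ENSMUSG00000030849) is annotated on chromosome 7 at 130162451 to 133123350, minus strand, and shares 314 exon bases with Ctbp2 on the same strand, so reads in them could be counted for either gene.

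Fgfr3 and Fgfr4 had overlapping genotypes at both stages. Fgfr3 (ENSMUSG00000054252; chromosome 5, 33721674 to 33737068, plus strand) had 3.51, 4.12, 8.14 and 4.43 FPKM in Mfap2-/- mice at 8 weeks, against 3.81, 3.95, 6.45 and 3.15 FPKM in Mfap2+/+ mice. Mouse 3 was again the highest in each genotype. After reversal it had 5.57, 5.58, 4.62 and 5.17 FPKM in Mfap2-/- mice, against 6.75, 5.16, 5.24 and 6.47 FPKM in Mfap2+/+ mice, values that differed little. The limma differences were 0.16 ± 0.26 at 8 weeks (adjusted p = 0.729) and -0.14 ± 0.14 after reversal (adjusted p = 0.834; SE). It shares 998 exon bases with G630022F23Rik on the opposite strand, and the strand setting of the counting is not given in the sources used here.

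Fgfr4 (ENSMUSG00000005320; chromosome 13, 55152640 to 55168759, plus strand), the hepatocyte FGF receptor, had 13.5, 14.9, 13.1 and 11.8 FPKM in Mfap2-/- mice at 8 weeks, against 13.5, 11.1, 18.5 and 12.5 FPKM in Mfap2+/+ mice. The Mfap2-/- values lay within the Mfap2+/+ range. After reversal it had 6.57, 9.20, 7.81 and 8.05 FPKM in Mfap2-/- mice, against 5.95, 7.21, 7.20 and 7.03 FPKM in Mfap2+/+ mice, and Mfap2-/- mice 2 to 4 lay above every Mfap2+/+ mouse. The limma differences were -0.04 ± 0.21 at 8 weeks (adjusted p = 0.920) and 0.18 ± 0.14 after reversal (adjusted p = 0.776; SE). The intervals reached from -0.48 to 0.40 at 8 weeks and from -0.14 to 0.50 after reversal.

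**Figure D2:**
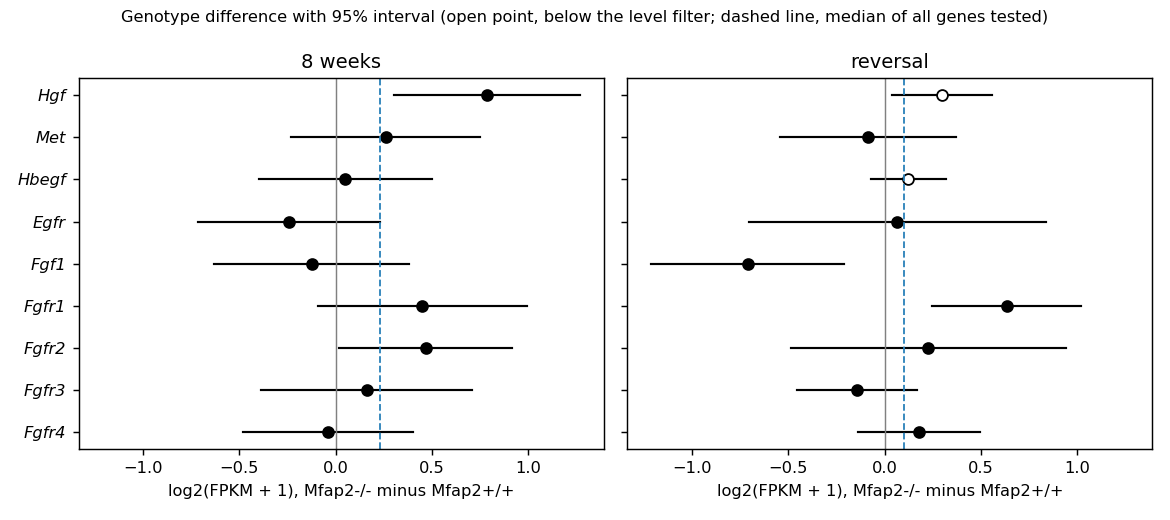
Genotype difference of each member in log2(FPKM + 1), Mfap2-/- minus Mfap2+/+ (points), with its 95% limma interval (lines), at 8 weeks (left) and after reversal (right). Open points are the members below the level filter, from the fit with no filter, and the dashed line is the median of all genes tested (0.23 and 0.10); Hgf at 0.78 is the farthest right at 8 weeks and Fgf1 at -0.71 the farthest left after reversal.

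By medians of 4 mice, Egfr was first and Hgf and Hbegf were last in every group, and the order between them differed among the groups. At 8 weeks the order in Mfap2-/- livers was Egfr (23.9 FPKM), Fgfr4 (13.3), Fgfr1 (11.4), Fgfr2 (10.9), Fgf1 (9.06), Met (7.54), Fgfr3 (4.27), Hgf (3.04) and Hbegf (0.913). Egfr and Hbegf lay apart from their neighbours there, and each of the other neighbouring pairs overlapped in range. In Mfap2+/+ livers Egfr (30.7 FPKM) was again first and Fgfr4 (13.0) second, while Fgf1 (10.5) stood above Fgfr1 (7.76) and Fgfr2 (6.99). Hgf (1.42) and Hbegf (0.700) overlapped in range in this group, in which only Egfr and Fgfr4, and Fgfr3 and Hgf, were neighbours that lay apart. After reversal Fgf1 was second in both genotypes, at 14.1 FPKM in Mfap2-/- livers and 23.3 FPKM in Mfap2+/+ livers, and Fgfr2 followed at 13.5 and 13.4 FPKM. Fgfr1 ranked 5 in Mfap2-/- livers (5.81 FPKM) and 7 in Mfap2+/+ livers (2.97 FPKM). Neighbours lay apart in range only at Egfr and Fgf1, Fgfr4 and Fgfr1, and Met and Hgf in Mfap2-/- livers, and at Fgf1 and Fgfr2, and Fgfr1 and Hgf in Mfap2+/+ livers. Egfr was above 86.8% and 86.9% of listed genes in these groups, whereas Hgf was above 16.1% in Mfap2-/- livers and 11.1% in Mfap2+/+ livers.

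**Figure D3:**
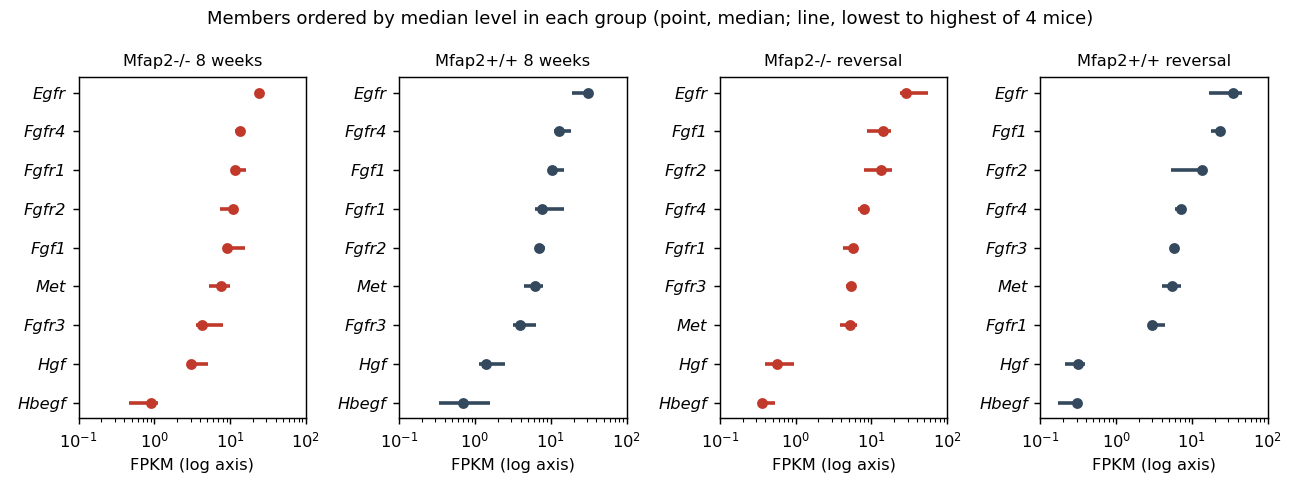
Members in order of their median FPKM in each group, on a log axis (point, median; line, lowest to highest of 4 mice), with Mfap2-/- left of Mfap2+/+ at each stage. Egfr leads in every group, Hgf and Hbegf close the order in every group, and most neighbouring lines overlap.

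The 4 FGF receptor genes summed to 41.2 ± 5.23 FPKM in Mfap2-/- livers and 34.6 ± 5.17 FPKM in Mfap2+/+ livers at 8 weeks, and to 32.1 ± 4.28 FPKM and 27.6 ± 4.48 FPKM after reversal (SD, n = 4 each). At 8 weeks Fgfr4 made up 32.6% ± 3.66 of the sum in Mfap2-/- livers and 40.1% ± 5.18 in Mfap2+/+ livers, and Fgfr1 30.1% ± 4.71 and 26.4% ± 9.62. After reversal Fgfr2 was the largest share on average, at 41.1% ± 8.55 in Mfap2-/- livers and 40.9% ± 10.6 in Mfap2+/+ livers, and Fgfr1 was 17.6% ± 4.16 and 11.9% ± 3.16. No share of any receptor separated the genotypes at either stage.

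**Figure D4:**
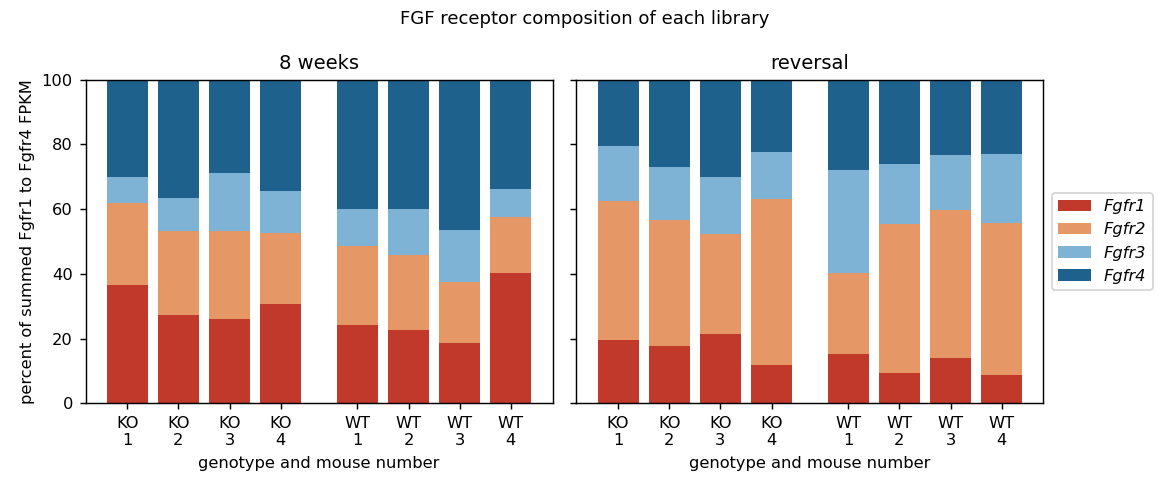
Share of each FGF receptor gene in the summed FPKM of Fgfr1 to Fgfr4, in percent, for each Mfap2-/- (KO) and Mfap2+/+ (WT) library at 8 weeks (left) and after reversal (right). Fgfr1 in Mfap2+/+ mouse 4 at 8 weeks is the largest of its kind, at 40.4%, and Fgfr3 in Mfap2+/+ mouse 1 after reversal reaches 31.8%.

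The pathways were also read from lists that follow the route of the signal, and 0 genes of any list passed the test at either stage. These lists include the members. The HGF-MET list holds Hgf and Met, the EGF list Hbegf and Egfr, and the FGF list Fgf1 and Fgfr1 to Fgfr4. Counts and medians of these lists thus partly restate the members, and the 8-week medians are those of Met (HGF-MET) and Fgfr3 (FGF). Of the HGF-MET axis, 13 of 14 genes were tested at 8 weeks, 7 with a difference above 0 and 6 below, with a median of 0.26 against 0.23 over all genes. After reversal 10 were tested, 3 above 0 and 7 below, with a median of -0.11 against 0.10. Its smallest p belonged to Plau, the urokinase that can activate pro-HGF, at 10.2 ± 1.46 FPKM in Mfap2-/- livers and 3.34 ± 1.52 FPKM in Mfap2+/+ livers (SD, n = 4 each; limma difference 1.41, adjusted p = 0.0561). After reversal Plau averaged 2.29 ± 1.66 FPKM in Mfap2-/- livers and 0.680 ± 0.136 FPKM in Mfap2+/+ livers (limma adjusted p = 0.537). Hgfac, a protease that activates pro-HGF, averaged 39.2 ± 7.92 FPKM in Mfap2-/- livers and 53.7 ± 11.0 FPKM in Mfap2+/+ livers at 8 weeks (limma adjusted p = 0.382). After reversal Hgfac averaged 145 ± 49.1 FPKM in Mfap2-/- livers and 180 ± 65.0 FPKM in Mfap2+/+ livers (limma adjusted p = 0.836).

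Of the EGF family, 14 of 19 genes were tested at 8 weeks (10 above 0 and 4 below) and 10 after reversal (5 and 5). Of all genes tested, 82.6% were above 0 at 8 weeks and 70.7% after reversal. The list medians were 0.29 and -0.02, against 0.23 and 0.10 over all genes. Adam17, the sheddase that releases HB-EGF and other EGFR ligands, averaged 8.15 ± 1.83 FPKM in Mfap2-/- livers and 5.50 ± 0.815 FPKM in Mfap2+/+ livers at 8 weeks, and 4.97 ± 0.642 FPKM and 3.64 ± 0.324 FPKM after reversal. Its limma adjusted p was 0.319 at 8 weeks and 0.548 after reversal. Its genotypes did not overlap at either stage, as for 0.683% of the genes listed in both tables in this direction. At 8 weeks it was the 1 gene of 14 tested in the list to separate, where 6.29% of all genes did so in this direction. After reversal Adam17 and Erbb3 were those that separated, of 10 tested, where 3.62% of all genes separated in the direction of Adam17. Nrg1, listed but below the filter there, also separated, at 0.51 to 1.09 FPKM in Mfap2-/- livers and 0.10 to 0.50 FPKM in Mfap2+/+ livers. Of the genes below the filter 3.6% did so in this direction. Erbb3, an EGFR relative that pairs with other receptors of the family, averaged 7.00 ± 1.07 FPKM in Mfap2-/- livers and 9.33 ± 1.05 FPKM in Mfap2+/+ livers after reversal, without overlap (limma adjusted p = 0.568), where 0.988% of all genes separated in this direction. At 8 weeks it averaged 8.41 ± 2.43 FPKM in Mfap2-/- livers and 8.32 ± 1.80 FPKM in Mfap2+/+ livers (limma adjusted p = 0.996). Nrg4, a ligand of the EGF family, averaged 6.13 ± 2.85 FPKM in Mfap2-/- livers and 14.2 ± 6.07 FPKM in Mfap2+/+ livers at 8 weeks (limma adjusted p = 0.178), and 14.6 ± 5.11 FPKM and 20.6 ± 3.89 FPKM after reversal (limma adjusted p = 0.615).

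Of the FGF family, 15 of 22 genes were tested at 8 weeks (9 above 0 and 6 below) and 14 after reversal (9 and 5). The list medians were 0.16 and 0.15, against 0.23 and 0.10 over all genes. Klb, which encodes beta-klotho, averaged 4.39 ± 0.750 FPKM in Mfap2-/- livers and 4.80 ± 1.60 FPKM in Mfap2+/+ livers at 8 weeks (limma adjusted p = 0.852), and 2.99 ± 1.05 FPKM and 2.62 ± 0.933 FPKM after reversal (limma adjusted p = 0.924). Fgf15 was in neither table. The bile acid list of 5 genes, which holds Fgfr4 and Klb, had 0 of 5 differences above 0 at 8 weeks and 4 of 5 after reversal. Of all genes tested 82.6% and 70.7% were above 0. Cyp7a1, which sets the rate of bile acid production and is repressed by FGFR4 signalling, averaged 0.355 ± 0.269 FPKM in Mfap2-/- livers and 4.96 ± 4.04 FPKM in Mfap2+/+ livers at 8 weeks. It was listed at 0 to 0.598 FPKM in Mfap2-/- livers and at 0.843 to 10.2 FPKM in Mfap2+/+ livers, without overlap (limma difference -1.87, adjusted p = 0.171). It was the 1 gene of this list to separate, where 0.612% of all genes did so in this direction. After reversal it averaged 19.9 ± 10.1 FPKM in Mfap2-/- livers and 10.7 ± 2.94 FPKM in Mfap2+/+ livers (difference 0.76, limma adjusted p = 0.548), with overlap.

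Downstream, 23 of the 25 shared transduction genes had a difference above 0 at 8 weeks and 17 of 25 after reversal, beside 82.6% and 70.7% of all genes tested. Among ERK feedback genes and targets, which ERK signalling induces, 17 of 17 tested were above 0 at 8 weeks on the log2 scale. Their median was 0.55, against 0.23 over all genes. By mean FPKM Dusp4 (8.87 ± 5.58 against 9.01 ± 13.2) and Myc (26.4 ± 10.7 against 28.4 ± 23.6; SD) were lower in Mfap2-/- livers there. With median-ratio scaling 46.9% of all genes tested were above 0 at 8 weeks, and the list was not counted under it. After reversal 9 of 13 were above 0 with a median of 0.27, against 0.10. Etv5, an ETS factor, averaged 4.04 ± 1.07 FPKM in Mfap2-/- livers and 1.99 ± 0.948 FPKM in Mfap2+/+ livers at 8 weeks (limma adjusted p = 0.179), and 0.928 ± 0.145 FPKM and 0.800 ± 0.201 FPKM after reversal (limma adjusted p = 0.873). Dusp6, an ERK phosphatase, averaged 24.6 ± 4.00 FPKM in Mfap2-/- livers and 16.7 ± 4.26 FPKM in Mfap2+/+ livers at 8 weeks (limma adjusted p = 0.284), and 18.7 ± 4.88 FPKM and 13.7 ± 3.45 FPKM after reversal (limma adjusted p = 0.672). Ier3, an early response gene, averaged 5.45 ± 1.57 FPKM in Mfap2-/- livers and 2.79 ± 0.554 FPKM in Mfap2+/+ livers after reversal, without overlap (limma adjusted p = 0.499), as 1 of the 13 tested and beside 3.62% of all genes. At 8 weeks Ier3 averaged 34.5 ± 13.6 FPKM in Mfap2-/- livers and 23.8 ± 33.1 FPKM in Mfap2+/+ livers, with overlap (limma adjusted p = 0.491). Spry4, a feedback inhibitor, averaged 1.55 ± 0.828 FPKM in Mfap2-/- livers and 1.19 ± 0.528 FPKM in Mfap2+/+ livers at 8 weeks (limma adjusted p = 0.645), and 0.780 ± 0.256 FPKM and 1.37 ± 0.254 FPKM after reversal (limma adjusted p = 0.548). Of 18 proliferation genes tested at 8 weeks, 10 were above 0, with a median of 0.04 against 0.23, and of 16 after reversal 15 were, with a median of 0.36 against 0.10. At 8 weeks 2 of the 18, Mcm3 and Mcm5, were higher at an unadjusted limma p below 0.05, beside 12.8% of all genes. Mcm2 and Mcm3 separated there with every Mfap2-/- liver higher, beside 6.29% of all genes. Of the 16 tested after reversal 0 had an unadjusted limma p below 0.05 and 0 separated. The marker of cycling cells Mki67 averaged 0.975 ± 0.502 FPKM in Mfap2-/- livers and 1.00 ± 0.343 FPKM in Mfap2+/+ livers at 8 weeks (limma adjusted p = 0.931), and 1.56 ± 0.921 FPKM and 0.910 ± 0.234 FPKM after reversal (limma adjusted p = 0.699).

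The 9 listed hepatocyte markers summed to 24921 to 39815 FPKM in Mfap2-/- livers and 38206 to 63906 FPKM in Mfap2+/+ livers at 8 weeks, with a small overlap. Alb alone averaged 24089 FPKM in Mfap2-/- livers and 36951 FPKM in Mfap2+/+ livers there, so these sums mostly follow Alb. After reversal the hepatocyte sums were 35988 to 76415 FPKM in Mfap2-/- livers and 52298 to 77100 FPKM in Mfap2+/+ livers, with overlap. The part of these markers, and of the non-parenchymal markers given with Hgf, in the pathway counts was not tested.

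**Figure D5:**
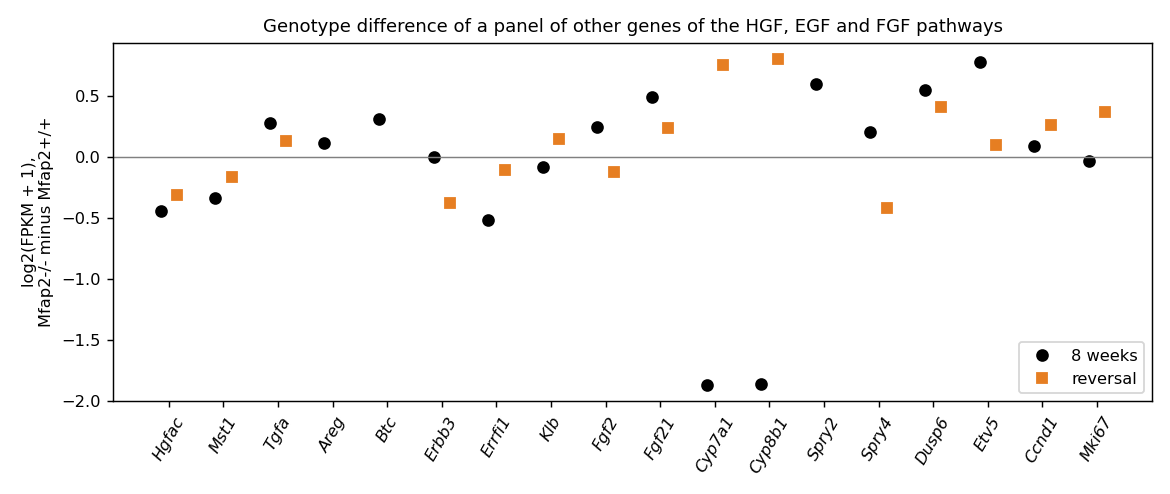
Genotype difference in log2(FPKM + 1), Mfap2-/- minus Mfap2+/+, for each gene of a panel of 23 further pathway genes that was tested at a stage (circles, 8 weeks; squares, reversal). None passed the test; Cyp7a1 lies at -1.87 at 8 weeks and at 0.76 after reversal.

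For each of the 7 members tested in both tables, the closest gene over the 16 libraries was sought among 10640 others, by the root mean square difference of log2(FPKM + 1) after centring each gene within its table. The closest were Map3k2 to Met (0.092), Syt1 to Egfr (0.147), Mapkapk2 to Fgfr1 (0.164), Lrp1 to Fgfr2 (0.192), Rnf169 to Fgfr3 (0.110), Pcdh1 to Fgfr4 (0.108) and Rab43 to Fgf1 (0.165). The members' own root mean square spread was 0.287 for Met, 0.411 for Egfr and 0.179 for Fgfr4, so the likeness was closest relative to spread for Met and Egfr among these 3. The libraries share the scale of their table, and the likeness is a description.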

How the data were processed

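Gene expression was measured by bulk RNA sequencing of 16 livers. The authors deposited one table of normalized values per stage. The table headers name no unit, and the values were taken as FPKM, because the submitters' processing notes name HISAT, Cufflinks and mm10, with no versions. TPM of a filtered gene list was not told apart from FPKM in the reversal table. The tables hold no counts, so read depth is unknown and no counting interval is given. Because FPKM divide by a library total, a few abundant transcripts shift all other genes. A NEBNext Ultra kit was used for the 8-week libraries, per the labels' protocols, and either it or a VAHTS Universal kit for the reversal libraries.

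From the deposited FPKM, genes averaging at least 0.5 in the 8 libraries of their table were compared as log2(FPKM + 1) in limma 3.58.1 in R 4.3.3 (trended and robust empirical Bayes, statmod 1.5.0), 2-sided, within a table, with Benjamini-Hochberg adjustment and a threshold of 0.05. This scale understates changes of low genes. The interaction used all 16 libraries. Mfap2 was compared by an exact permutation test. The steps were tested on simulated data. Symbols were matched to identifiers within the tables, and GENCODE positions of mm10 were found for 13713 of 13715 identifiers at 8 weeks and 12917 of 12922 after reversal. The labels number separate mice, taken as replicates.

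The members, the lists and the rule for other named genes were chosen with earlier results of these data known. The rule took all 9 members, Mfap2, Alb, a panel of 23 pathway genes, up to 3 genes of each list with the smallest p per stage, and the 3 genes of nearest pattern per member. Those given in the text were picked from these after their values were seen. Alternatives were other pseudocounts, filters and scalings, a block for the mouse number, and leaving out libraries.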

Additional observations from a re-analysis of the deposited data

Results flagged for a closer look

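In 4 of the 36 groups of 4 mice checked over the members, the highest or lowest mouse lay farther from its nearest neighbour than Dixon's 95% critical value allows. Chance alone flags about 1 in 20 groups. Mfap2-/- mouse 3 was such a value in 3 of the 4. At 8 weeks it had the highest Hgf of its group, at 5.10 FPKM against 2.84 to 3.16 in the other Mfap2-/- mice, and the highest Fgf1, at 15.9 FPKM against 8.23 to 9.47. The reversal mouse of the same number, a separate animal whose library stood apart, had the highest Hbegf of its group, at 0.53 FPKM against 0.34 to 0.37. Mfap2+/+ mouse 1 after reversal had the lowest Fgfr4 of its group, at 5.95 FPKM against 7.03 to 7.21, and its library also stood apart from the rest.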

How the results depend on the processing

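The number of genes called at 8 weeks, 1 with the values as deposited, was 3 with a pseudocount of 0.1, 2 after median-ratio scaling, 16 with libraries scaled to the same sum, 2 without the libraries that stood apart and 1 to 1465 when each library was left out in turn (1465 without Mfap2+/+ mouse 4, 32 without Mfap2-/- mouse 2, 4 without Mfap2+/+ mouse 3 and 2 without Mfap2+/+ mouse 1 or 2). After reversal it was 0 under every alternative run. For the interaction it was 0, with 1 without the libraries that stood apart and 0 to 1 when each library was left out (1 without Mfap2-/- mouse 3 after reversal, or without Mfap2+/+ mouse 3 or 4 at 8 weeks). Mouse numbers did not pair the libraries, with correlations of same-numbered deviations from -0.44 to 0.37 at 8 weeks and -0.66 to 0.37 after reversal, and not every sample correlated best with its own number. With the replicate block 0 genes were called at 8 weeks. Scaling moved the split of directions: of genes at an unadjusted p below 0.05, 88.8% were higher in Mfap2-/- livers at 8 weeks with the deposited scale, 52.7% with median-ratio scaling and 57.5% with quantile normalization, and 82.2%, 53.5% and 52.1% after reversal. Of the members' settings, 126 kept direction and side of the threshold at 8 weeks, 15 changed sign and 2 passed the test, after reversal 103 kept and 9 changed sign, and between stages 167 kept and 1 changed sign. None of the values that changed sign passed the test, and the causes were not tested. On the log2 scale, median-ratio scaling gave -0.020 for Met, -0.070 for Hbegf and -0.11 for Fgfr3 at 8 weeks and -0.075 for Egfr after reversal. Quantile normalization gave -0.0070 for Met, -0.14 for Hbegf and -0.12 for Fgfr3 at 8 weeks and -0.0066 for Egfr after reversal. Scaling to the same sum gave 0.015 for Fgfr4 at 8 weeks. Without the libraries that stood apart Egfr was 0.012 and Hbegf -0.23 at 8 weeks, and Met 0.084 after reversal. Leaving out each library in turn gave, at 8 weeks, -0.089 to 0.23 for Hbegf, -0.057 to 0.33 for Fgfr3, -0.13 to 0.098 for Fgfr4 and -0.32 to 0.0064 for Fgf1. After reversal it gave -0.20 to 0.032 for Met, -0.22 to 0.25 for Egfr and -0.077 to 0.43 for Fgfr2, and for the interaction of Fgfr1 -0.055 to 0.32. Hgf at 8 weeks ranged from 0.50 to 1.09 over the other alternatives, and its adjusted p over all of them from 0.0112 to 0.920.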
